A study of Mus musculus with 75 samples.

Results

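The genes described here are the transcription factor Atf4 and 9 genes that belong with it in the integrated stress response, the programme that cells run when eIF2 is phosphorylated. The members were fixed by gene identifier from knowledge of the pathway, with earlier results of these data known. They are Atf4, Ddit3, Ppp1r15a, Trib3, Chac1, Asns, Psat1, Phgdh, Shmt2 and Mthfd2, which are 10 of the 53465 genes counted. All 10 passed the filter on low counts in the RiboTag assay, and 9 passed it in the SPEED assay, where Chac1 did not. The cells were mouse CD4 effector T cells (Teff, CD4+CD25-) of spleen and lymph nodes. By its title, the study asked how regulatory T cells (Tregs) act on translation during the activation of CD4 T cells.

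In the RiboTag assay, Teff came from 5 mice bred from the strain B6N.129-Rpl22tm1.1Psam/J, crossed with the strain B6.Cg-Tg(Cd4-cre)1Cwi/BfluJ. The Cre recombinase is driven by Cd4 and switches on a hemagglutinin-tagged copy of the ribosomal protein Rpl22. Each mouse gave a culture rested in IL7, a culture stimulated with beads carrying anti-CD3 and anti-CD28, and a stimulated culture with Tregs. RNA was sequenced before precipitation of the tagged ribosomes (Input) and after it (IP). In the SPEED assay, Teff came from 4 mice labelled B6.SJL-PtprcaPepcb/BoyJ, while the series' design text calls them C57/B6. They were left untreated, stimulated, stimulated with Tregs, or stimulated and given HHT for 10 min. Input, polysomal (Pol) and subpolysomal (SubPol) RNA from sucrose fractionation was sequenced. Each SPEED group held 4 libraries, except 3 for Pol and SubPol with HHT and 2 for Input with HHT. A further library of the last group, with the same title of mouse 1, was left out. Its library number follows those of the mouse 2 Input libraries, and no HHT Input library is titled mouse 2, so its mouse is uncertain. The Tregs were CD4+YFP+ cells, for which the labels name Foxp3YFP-Cre mice, and they carried no tagged ribosomes that the labels mention. The sources used here do not give what HHT stands for, how long the cultures ran, or whether Tregs were removed before lysis. In such bulk samples, fewer cells of a type and less RNA per cell cannot be told apart.

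Phosphorylation of eIF2 by stress kinases lowers the initiation of most translation. The Atf4 mRNA carries short upstream open reading frames (uORFs), which keep ribosomes from its coding sequence in unstressed cells and let them reach it when eIF2 is phosphorylated. Ddit3, which encodes the transcription factor CHOP, and Ppp1r15a, which encodes GADD34, the subunit that directs a phosphatase to eIF2, also have inhibitory uORFs. ATF4 protein binds C/EBP-ATF response elements and raises the transcription of genes for amino acid supply and of stress genes such as Trib3 and Chac1. In activated T cells, the serine and one-carbon enzymes among these targets supply carbon units for nucleotide synthesis.

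The promoters of Asns and Chac1 are shown because these members went from near 0 to a measurable level on stimulation, Chac1 only in RiboTag mice 3 to 5. Each holds the core of a C/EBP-ATF response element. So does the promoter of Trib3, a member that fell on stimulation, which is not shown. The core was searched as TGATGNAA on both strands in RefSeq promoters of build GRCm38.p6, from 250 bases before the start of transcription to 50 after it. Capitals mark the match, which runs on the other strand in Chac1.
Asns, chr6:7693210-7693289, minus strand: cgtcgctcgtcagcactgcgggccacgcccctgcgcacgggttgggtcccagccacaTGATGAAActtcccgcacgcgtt
Chac1, chr2:119350992-119351091, plus strand: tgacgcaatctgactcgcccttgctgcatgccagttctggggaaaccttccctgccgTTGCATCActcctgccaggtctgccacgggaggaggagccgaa
The match lies at -23 to -16 from the start in Asns and at -193 to -186 in Chac1. A match was present in 3 of the 10 members (Asns, Chac1 and Trib3) and in 3.97% of 32851 promoters. The members are counted here as genes, with 11 promoters between them, and the background as single promoters. The E-box CACGTG, searched as a contrast, was in 0 of the 10 and in 7.15% of all promoters. A match is a run of letters, and binding was not measured.

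The depth was 1658481 to 2824875 gene counts per RiboTag library and 1566501 to 4621104 per SPEED library. At these depths a library in which a gene has 0 counts could hold up to 3, which in the RiboTag rested Input libraries is 1.38 to 1.54 CPM. Levels below are CPM, counts scaled to the same library total, on TMM-scaled library sizes, a scale on which a gene can be compared between libraries but not with another gene. Changes are log2 fold changes ± SE from edgeR's quasi-likelihood test, two-sided, with p-values adjusted by the Benjamini-Hochberg method over all genes of the assay and called under 0.05. In RiboTag, mice 1 and 2 stood apart from mice 3 to 5 in several members. Their rested Input libraries held Psat1 at 48.3 and 57.6 CPM against 18.1 to 30.5 in the others, and their stimulated Input libraries held Asns at 15.8 and 27.7 CPM against 96.9 to 117. Values for mice 3 to 5 alone, an alternative chosen after the data were seen, are given beside the changes with Tregs and beside the stimulation changes whose size they moved. The libraries are not stranded, so reads in shared stretches of overlapping genes cannot be assigned. Ppp1r15a shares 730 of its 3352 bases with Tulp2, Ddit3 shares 77 bases with Mbd6 and 71 with Mars1, and Shmt2 shares 32 with Ndufa4l2.

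Stimulation moved the members in both directions. The 5 amino acid and one-carbon enzymes and Chac1 rose in RiboTag Input, the stress regulators Ddit3, Ppp1r15a and Trib3 fell, and the Atf4 mRNA itself did not pass the test. So 9 of 10 members were called (6 higher and 3 lower), where 63.3% of all 10751 genes tested were called. Asns and Chac1 passed the count filter only through groups in which they were high, so their calls add nothing to this count, and of the other 8 members 7 were called (4 higher and 3 lower). The median log2 change was 1.68 over all 10 members, a value that Asns and Chac1 raise, and -0.01 over all genes. In RNA bound to tagged ribosomes the same members were called in the same directions, 6 higher and 3 lower, against 64.7% of all genes. In SPEED Input 9 of 9 were called (5 higher and 4 lower, with Atf4 among the lower) against 54.4%, and in Pol also 9 of 9 (5 higher and 4 lower) against 55.8%. Without Asns and Chac1, 7 of 8 members were called in RiboTag IP, and 8 of 8 in SPEED Input and in Pol. With most genes of each assay called, the number of members called is not in itself a feature of the programme.

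**Figure D1:**
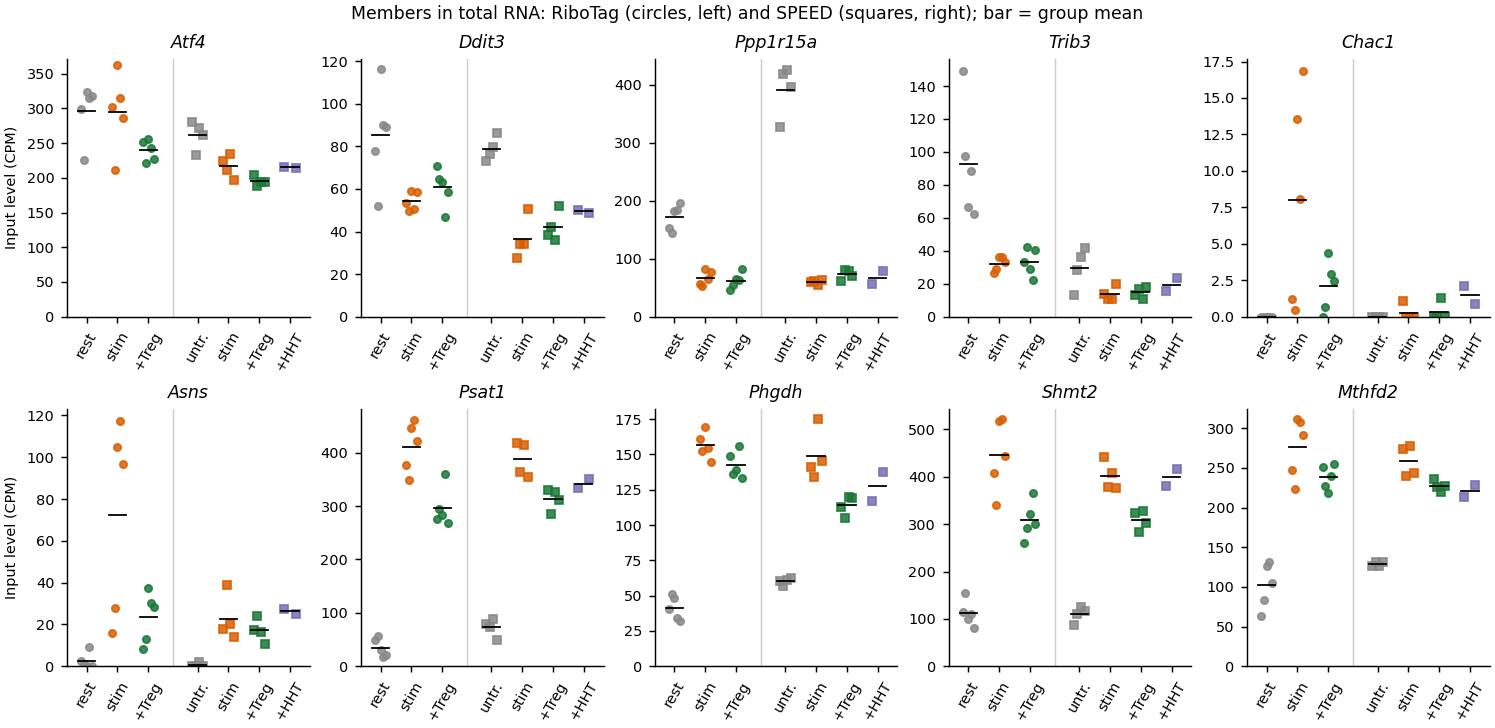
Level of each member in Input RNA (vertical axes, CPM, starting at 0) in the RiboTag groups (circles, left) and SPEED groups (squares, right), 1 point per mouse and a bar at the group mean. Psat1, Phgdh, Shmt2, Mthfd2 and Asns lie higher in every stimulated library than in any rested or untreated one of the same assay, Ppp1r15a lies lower, and Atf4 overlaps.

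Atf4 (ENSMUSG00000042406, chr15:80255184-80257545) is the transcription factor of the programme. Its level in RiboTag Input at rest was 298.9, 226.1, 324.1, 314.4 and 318.1 CPM in mice 1 to 5, and after stimulation 302.4, 210.7, 362.4, 315.5 and 285.7 CPM. Mouse 2 was the lowest in both, the groups overlapped, and the level was higher after stimulation in 3 of 5 mice. The change was 0.00 ± 0.13 (adjusted p = 0.98, 95% interval -0.27 to 0.26), and its sign turned under other scalings. In SPEED Input, Atf4 was at 281.1, 233.4, 272.2 and 261.5 CPM in untreated cells and 224.9, 211.4, 234.9 and 196.2 CPM in stimulated cells of mice 1 to 4. It fell in 4 of 4 mice, by 0.27 ± 0.09 on the log2 scale (adjusted p = 0.0085). That call was lost without mouse 1 (adjusted p = 0.085) and without mouse 4 (adjusted p = 0.10). In Pol it fell by 0.37 ± 0.09 (adjusted p = 0.00066), a call that was lost without mouse 1 (adjusted p = 0.071).

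Ppp1r15a (ENSMUSG00000040435, chr7:45522917-45526268) fell most among the members with uORFs. In RiboTag Input it stood at 153.6, 143.7, 182.3, 184.7 and 195.3 CPM at rest and at 55.9, 53.6, 82.7, 64.3 and 77.6 CPM after stimulation. The groups did not overlap, and the change was -1.36 ± 0.18 (adjusted p = 1.2e-07). In SPEED Input it stood at 327.5, 417.7, 425.2 and 396.1 CPM in untreated cells and at 59.6, 61.2, 54.7 and 62.6 CPM in stimulated cells. All stimulated libraries lay far below the untreated ones, and the change was -2.71 ± 0.17 (adjusted p = 2.6e-16). The stimulated levels of both assays covered a similar range and the untreated SPEED levels lay above the IL7-rested RiboTag levels, on scales that were normalised separately.

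Ddit3 (ENSMUSG00000025408, chr10:127290793-127296291) fell in every mouse of both assays. Its RiboTag Input levels were 78.0, 52.0, 116.6, 90.2 and 88.9 CPM at rest and 53.4, 49.4, 59.0, 50.4 and 58.5 CPM after stimulation. The rested library of mouse 2 lay within the range of the stimulated ones, and the change was -0.65 ± 0.18 (adjusted p = 0.0024). In SPEED Input, Ddit3 went from 73.2, 76.3, 79.8 and 86.1 CPM to 27.8, 34.2, 34.3 and 50.4 CPM, without overlap, a change of -1.10 ± 0.17 (adjusted p = 1.4e-06). Trib3 (ENSMUSG00000032715, chr2:152337425-152344060) encodes a pseudokinase that ATF4 and CHOP induce and that restrains them in turn. It was at 149.4, 97.6, 66.6, 88.3 and 62.2 CPM at rest in RiboTag Input and at 26.7, 29.1, 36.3, 36.2 and 32.9 CPM after stimulation. Every stimulated library was below every rested one, and the change was -1.52 ± 0.26 (adjusted p = 6.1e-06), or -1.02 with mice 3 to 5 alone. In SPEED Input its untreated level ran from 13.2 to 41.6 CPM, the stimulated level from 10.8 to 19.8 CPM, and it was lower in 3 of 4 mice. The change there was -1.11 ± 0.37 (adjusted p = 0.011), and it did not pass after mouse 2 or mouse 3 was left out (adjusted p = 0.072 and 0.058).

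The enzymes of serine synthesis and the mitochondrial folate pathway rose in every mouse of both assays. Psat1 (ENSMUSG00000024640, chr19:15905123-15925059), the phosphoserine aminotransferase, went in RiboTag Input from 48.3, 57.6, 30.5, 18.1 and 21.1 CPM to 377.6, 348.9, 446.1, 460.1 and 421.8 CPM. Mice 1 and 2 were highest at rest and lowest after stimulation. The rise was 3.54 ± 0.22 (adjusted p = 4.5e-15), 11.6-fold, and 4.27 with mice 3 to 5 alone, and in SPEED Input it was 2.41 ± 0.13 (adjusted p = 1.1e-18). Phgdh (ENSMUSG00000053398, chr3:98313171-98339969), which catalyses the first step of serine synthesis, went from 32.4 to 51.1 CPM at rest to 144.9 to 169.4 CPM after stimulation. It rose by 1.91 ± 0.11 in RiboTag Input (adjusted p = 2.2e-16) and by 1.30 ± 0.16 in SPEED Input (adjusted p = 8.3e-09).

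Shmt2 (ENSMUSG00000025403, chr10:127517123-127522444), the mitochondrial serine hydroxymethyltransferase, was at 114.6, 153.8, 99.5, 109.3 and 80.7 CPM at rest in RiboTag Input. After stimulation it was at 407.4, 340.1, 518.2, 521.7 and 444.5 CPM. No library overlapped, and the rise was 2.00 ± 0.14 (adjusted p = 1.0e-13) in RiboTag Input and 1.87 ± 0.12 (adjusted p = 4.0e-16) in SPEED Input. Mthfd2 (ENSMUSG00000005667, chr6:83305704-83326011), the next enzyme of that mitochondrial pathway, rose by 1.44 ± 0.16 (adjusted p = 4.9e-09) and by 1.00 ± 0.08 (adjusted p = 1.2e-13). Its SPEED Input libraries were close together, at 125.8 to 131.7 CPM untreated and 240.3 to 276.9 CPM stimulated.

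Asns (ENSMUSG00000029752, chr6:7675165-7693209), the asparagine synthetase, was near 0 at rest. Its RiboTag Input level at rest was 2.32, 0.921, 0, 9.07 and 0 CPM in mice 1 to 5, and after stimulation 15.8, 27.7, 105.0, 117.3 and 96.9 CPM. Every stimulated library was above every rested one, and mice 3 to 5 lay above mice 1 and 2. The size of such a rise depends on few counts at rest. It was 4.85 ± 0.73 (adjusted p = 1.3e-06) in RiboTag Input and 5.50 ± 0.75 (adjusted p = 1.3e-07) in SPEED Input, where untreated libraries held 0 to 1.81 CPM and stimulated ones 17.7, 38.7, 20.3 and 13.9 CPM. With mice 3 to 5 alone it was 5.11 in RiboTag Input. In IP the rested libraries of these 3 mice held 0 counts, so the fitted rise there (6.42 with all mice and 11.2 with mice 3 to 5) is no measured size. Without mouse 4 it was 6.13 in RiboTag Input, and in SPEED Input 4.69 without mouse 2 and 7.60 without mouse 3, past the test each time. Chac1 (ENSMUSG00000027313, chr2:119351242-119354326) encodes an enzyme that degrades glutathione. It had 0 counts in all 10 rested RiboTag libraries. Stimulated libraries of mice 1 and 2 held 2 and 1 counts in Input and 1 and 4 in IP, close to what a count of 0 allows, and those of mice 3 to 5 held 20 to 46 counts. In stimulated Input it was at 1.21, 0.462, 13.5, 8.08 and 16.8 CPM, and in stimulated IP at 0.459, 1.76, 15.3, 9.53 and 10.9 CPM. The mean of the stimulated libraries was at least 5.59-fold higher in Input and at least 5.61-fold higher in IP than the mean level of 3 counts per rested library. The rise is thus seen in mice 3 to 5, and its size is given only as this bound. In SPEED, Chac1 was at 0 in all 12 untreated libraries and at 0 in 7 of 12 stimulated ones, too low to be tested.

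The size of the rise or fall differed between the assays for 3 members. In a fit of the Input libraries of both assays, the stimulation change in RiboTag minus that in SPEED was 1.36 ± 0.19 for Ppp1r15a (adjusted p = 9.3e-06), 1.14 ± 0.27 for Psat1 (adjusted p = 0.0039) and 0.62 ± 0.15 for Phgdh (adjusted p = 0.0052). So Ppp1r15a fell less and the pair of serine enzymes rose more in RiboTag, and 17.8% of 11232 genes were called in this comparison. For Atf4 the difference was 0.28 ± 0.15 (adjusted p = 0.23). The assay, the strain and the resting condition (IL7 or untreated) cannot be told apart here.

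On the polysome gradient members also lay on both sides. In untreated cells, Atf4, Ddit3 and Ppp1r15a were lower in Pol than in SubPol, and the other 6 tested members were higher in Pol (9 of 9 called, against 39.7% of all 12428 genes). In stimulated cells 3 were lower and 5 higher in Pol (45.4% of all genes called), and with Tregs again 3 lower and 5 higher (44.2%). The 3 members that were lower in Pol are the 3 named above for inhibitory uORFs, and whether uORFs bear on this position was not tested. Trib3, which fell on stimulation with Ddit3 and Ppp1r15a, was higher in Pol like the enzymes, but was called in untreated cells only. With Tregs its log2 ratio was 0.89 (adjusted p = 0.056). In untreated cells 3 of the 9 calls rested on single mice: Asns did not pass without mouse 1 (adjusted p = 0.40) and was carried by that library. It had 18, 0, 0 and 2 counts in Pol and 0 in all 4 SubPol libraries, so its call compares with a count of 0 and says little. Trib3 did not pass without mouse 2 (adjusted p = 0.079), and Mthfd2 did not without mouse 1 (adjusted p = 0.077).

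**Figure D2:**
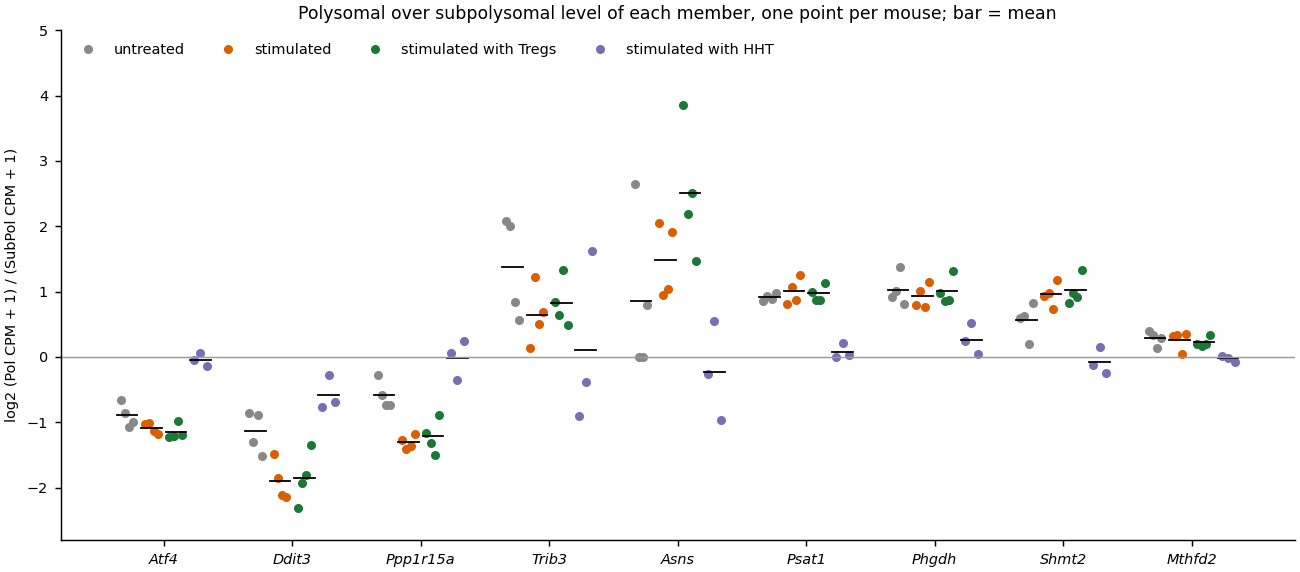
Log2 ratio of Pol to SubPol level (vertical axis, each CPM plus 1) for the 9 members tested in SPEED, 1 point per mouse and a bar at the mean of each condition (colours). Atf4, Ddit3 and Ppp1r15a lie below 0 in all untreated, stimulated and Treg cultures, and the HHT points of most members lie nearer to 0.

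In stimulated cells Atf4 was at 150.5, 179.2, 150.3 and 141.6 CPM in Pol and at 306.6, 360.0, 330.9 and 321.6 CPM in SubPol. Every Pol library was below every SubPol library, and the log2 ratio was -1.08 ± 0.09 (adjusted p = 2.3e-12), at the 14.3 percentile of all genes. In untreated cells it was -0.90 ± 0.09 and with Tregs -1.16 ± 0.09. Ddit3 lay further down, at 21.5, 20.9, 17.7 and 18.2 CPM in stimulated Pol and 61.7, 78.0, 80.3 and 84.4 CPM in SubPol, a log2 ratio of -1.95 ± 0.19 (adjusted p = 5.9e-11) and the 4.43 percentile. Ppp1r15a was at 34.8, 41.0, 33.3 and 35.8 CPM in stimulated Pol and 85.7, 110.4, 87.1 and 82.2 CPM in SubPol. Its log2 ratio was -1.34 ± 0.18 (adjusted p = 1.1e-07), and -0.60 ± 0.16 (adjusted p = 0.0021) in untreated cells.

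The target enzymes were on the other side of the gradient. In stimulated cells the log2 ratio of Pol to SubPol was 1.01 ± 0.12 for Psat1, 0.95 ± 0.16 for Phgdh, 0.97 ± 0.12 for Shmt2 and 0.26 ± 0.08 for Mthfd2. Psat1 was at 518.2, 559.7, 419.1 and 627.9 CPM in Pol against 293.8, 264.6, 228.4 and 262.8 CPM in SubPol. Asns had a ratio of 1.47 ± 0.55 (adjusted p = 0.027), which did not pass after mouse 1 or mouse 4 was left out (adjusted p = 0.10 and 0.088). With Tregs its ratio was 2.87 ± 0.62 (adjusted p = 0.00025), on 3 to 11 counts in each SubPol library, and 0.24 (adjusted p = 0.85) with Pol set against Input. Trib3 was higher in Pol in untreated cells (1.27 ± 0.37, adjusted p = 0.0054) and had 0.68 ± 0.38 in stimulated cells (adjusted p = 0.14). Mthfd2 in stimulated cells was called with 4 mice and not without mouse 2 (adjusted p = 0.056) or with upper quartile scaling (adjusted p = 0.10). With Tregs its call was lost without mouse 1, 2 or 4 (adjusted p = 0.051, 0.056 and 0.10). When Pol was set against Input in place of SubPol, 4 of 9 members passed in untreated cells (9.26% of all genes) and 5 of 9 in stimulated cells (8.33%). In untreated cells Atf4 kept its call (-0.38, adjusted p = 0.005), while Ddit3 (-0.51, adjusted p = 0.052) and Ppp1r15a (-0.23, adjusted p = 0.36) lost theirs. In stimulated cells all 3 kept it. There Atf4 was at -0.48, Ddit3 at -0.90 and Ppp1r15a at -0.73, while Asns (0.23), Phgdh (0.36) and Shmt2 (0.24) did not pass.

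Stimulation moved the ratio itself for none of the 9 members past the test, where 2.60% of all genes were called. The nearest were Ddit3, whose ratio changed by -0.81 ± 0.25 (adjusted p = 0.069), and Ppp1r15a, with -0.75 ± 0.24 (adjusted p = 0.076). Both passed in DESeq2's test (adjusted p = 0.028 and 0.048, with 5.36% of all genes called). With the mouse as a block both passed (adjusted p = 0.036 and 0.047, against 4.47%), and with the culture as a block also (adjusted p = 0.032 and 0.020, against 5.71%). With Pol set against Input the changes were smaller and did not pass, at -0.40 for Ddit3 (adjusted p = 0.85) and -0.49 for Ppp1r15a (adjusted p = 0.72). The ratio of Atf4 changed by -0.19 ± 0.13 (adjusted p = 0.47, 95% interval -0.44 to 0.07).

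In RiboTag, where the contrast is tagged-ribosome RNA against all RNA of the same culture, the ratios were much smaller. No member passed at rest (6.89% of all genes called), after stimulation (0.977%) or with Tregs (1.85%). Unadjusted p-values under 0.05 numbered 2373, 1462 and 1801 of 10751 genes, and DESeq2's test called 0 members in each condition. Atf4 was lower in IP than in Input in all 15 cultures. Its stimulated IP levels were 221.8, 152.8, 287.3, 266.4 and 244.9 CPM, each below the Input level of the same mouse, and the log2 ratio was -0.26 ± 0.13 at rest, -0.33 ± 0.13 after stimulation and -0.25 ± 0.13 with Tregs. Because IP and Input share a culture, the fit with the culture as a block bears on this ratio, and with it Atf4 passed in all 3 conditions (adjusted p = 0.0024, 0.00088 and 0.0076), where 17.9%, 7.90% and 11.2% of all genes were called. With the mouse as a block it passed at rest (adjusted p = 0.040, against 10.4% of all genes) and after stimulation (adjusted p = 0.025, against 2.33%).

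Shmt2 lay on the other side. It was higher in IP than in Input in all 15 cultures, with log2 ratios of 0.31 ± 0.14, 0.23 ± 0.13 and 0.24 ± 0.13, and it too passed in all 3 conditions with the culture as a block (adjusted p = 0.0046, 0.023 and 0.016). At rest with mice 3 to 5 alone it was 0.46 (adjusted p = 0.020). Trib3 at rest (adjusted p = 0.044) and Psat1 after stimulation (adjusted p = 0.039) also passed with that block. The IP-over-Input ratios had the sign of the Pol-over-SubPol ratios for 8 of 9 members in resting cells, for 9 of 9 after stimulation and for 9 of 9 with Tregs. The same share over 10691 genes was 59.0%, 62.7% and 60.1%. These ratios come from different mice and different methods. Stimulation changed the IP-over-Input ratio of no member (0.0279% of all genes called), and Tregs of none (0% called, with 125 genes at an unadjusted p under 0.05), and DESeq2's test called 0 members in either.

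With HHT for 10 min, members changed in their position on the gradient, and none was called in total RNA. In Input, 0 of 9 members passed (0.105% of all genes called, with 1025 at an unadjusted p under 0.05, and 0 members in DESeq2's test), and Atf4 was at 215.9 and 214.8 CPM against 196.2 to 234.9 CPM without HHT. In the ratio of Pol to SubPol, Atf4, Ddit3 and Ppp1r15a rose and Psat1, Phgdh and Shmt2 fell against stimulated cells (6 of 9 called, against 23.0% of all genes). Under HHT itself 0 of 9 members were called between Pol and SubPol (Ddit3 in DESeq2's test, adjusted p = 0.029), and 6.75% of all genes were, a smaller separation over all genes than the 45.4% without HHT.

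**Figure D3:**
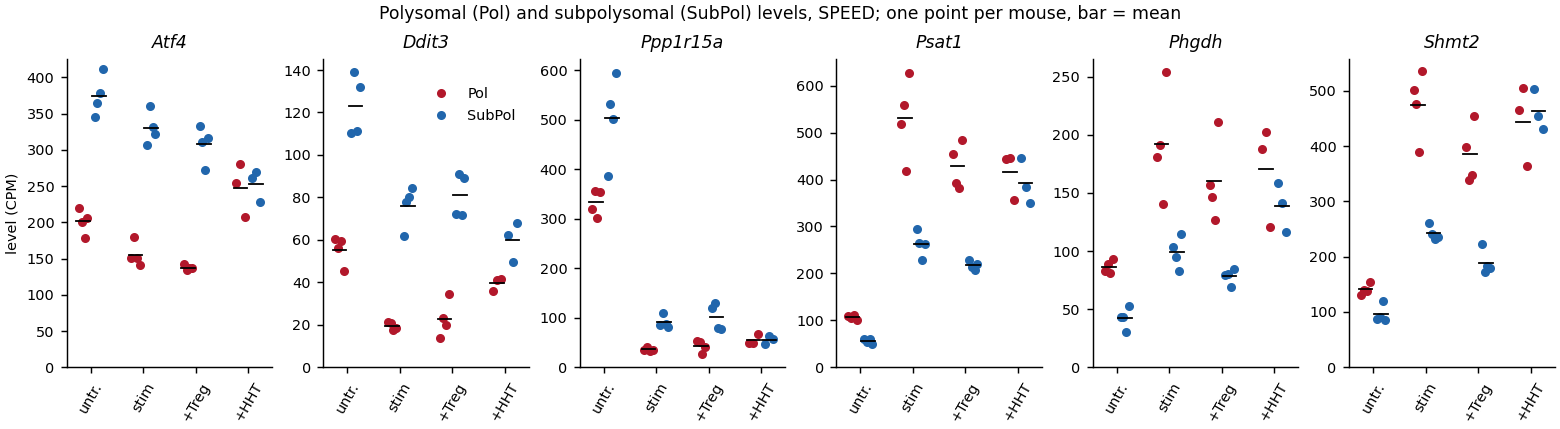
Levels in CPM (vertical axes, starting at 0) of 6 members in Pol (red) and SubPol (blue) of each SPEED condition, 1 point per mouse and a bar at the mean. The Pol and SubPol points are apart in untreated, stimulated and Treg cultures and overlap or nearly meet with HHT.

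Atf4 in Pol was at 254.2, 281.0 and 207.8 CPM with HHT in mice 1 to 3, above all stimulated Pol libraries (141.6 to 179.2 CPM). In SubPol it was at 261.3, 269.7 and 228.5 CPM, below all stimulated SubPol libraries (306.6 to 360.0 CPM). Its Pol-to-SubPol ratio rose by 1.05 ± 0.14 on the log2 scale (adjusted p = 7.3e-07). That of Ddit3 rose by 1.36 ± 0.28 (adjusted p = 0.00034) and that of Ppp1r15a by 1.35 ± 0.28 (adjusted p = 0.00033). In the other direction the ratio of Shmt2 fell by 1.03 ± 0.18 (adjusted p = 3.8e-05), as SubPol went from 232.9 to 260.9 CPM up to 432.0 to 504.1 CPM. The ratio of Psat1 fell by 0.94 ± 0.18 (adjusted p = 0.00018). That of Phgdh fell by 0.67 ± 0.24 (adjusted p = 0.038), and this did not pass after mouse 1, 2 or 4 was left out (adjusted p = 0.16, 0.091 and 0.065). With Pol set against Input, where HHT has 2 libraries, 1 of the 6 calls was kept, that of Atf4 (0.67, adjusted p = 0.031), and 0.354% of all genes were called. The estimates themselves were smaller there, at 0.58 for Ddit3, 0.47 for Ppp1r15a, -0.09 for Shmt2, -0.17 for Psat1 and 0.05 for Phgdh, whose sign turned.

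With Tregs, the one-carbon enzyme Shmt2 was lower in total and in ribosome-bound RNA of the RiboTag assay. It was the member that passed in both in the main fit, which leaves out the pairing by mouse. With the mouse as a block Asns passed in both too, as given below. In the main fit, 1 of 10 members was called in Input (4.53% of all genes) and 1 in IP (5.69%), both lower. The stimulated libraries of the preceding comparisons are the controls here, so the changes with stimulation and with Tregs are not independent. In SPEED 0 of 9 members passed in Input (0.587% of all genes, with 1795 at an unadjusted p under 0.05) and 0 of 9 in Pol (0.282%, with 993).

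**Figure D4:**
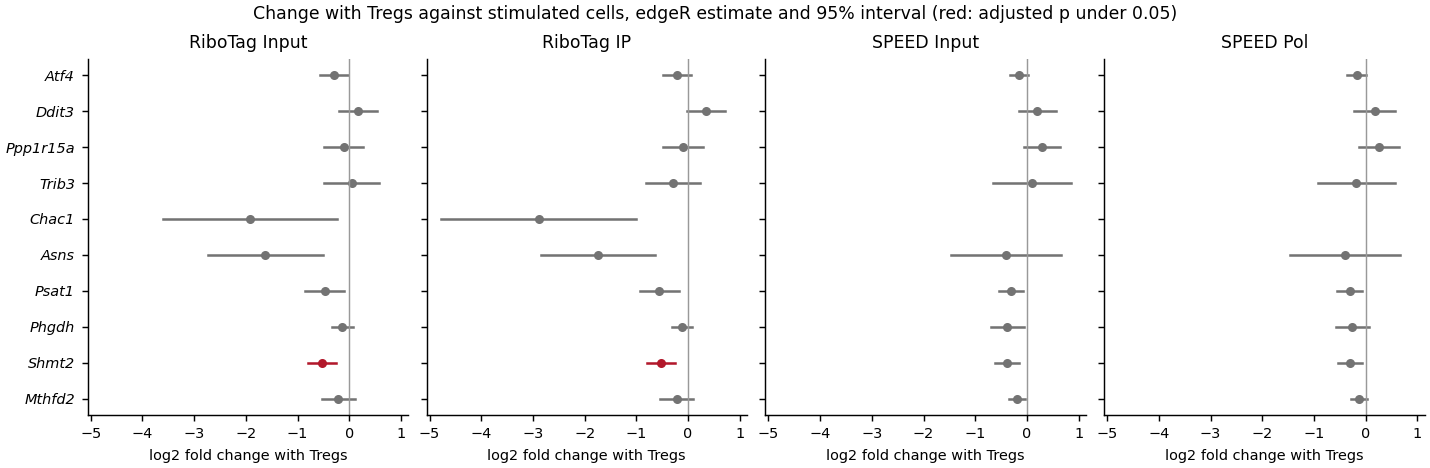
Log2 fold change with Tregs against stimulated cells (horizontal axes, edgeR estimate and 95% interval) for each tested member in the RiboTag Input and IP and the SPEED Input and Pol. Only Shmt2 in RiboTag is called (red) in this fit, which has no mouse block, and the intervals of Asns and Chac1 are wide.

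Shmt2 with Tregs was at 261.0, 292.2, 321.2, 365.4 and 300.4 CPM in RiboTag Input of mice 1 to 5, lower than without Tregs in 5 of 5 mice. The change was -0.54 ± 0.13 (adjusted p = 0.014), a call that was lost without mouse 1 (adjusted p = 0.059), mouse 3 (adjusted p = 0.13) or mouse 5 (adjusted p = 0.077). In IP it went from 443.2, 463.6, 537.4, 613.4 and 554.6 CPM to 300.1, 341.4, 360.2, 443.0 and 381.9 CPM. All Treg libraries were below all stimulated ones there, and the change was -0.52 ± 0.13 (adjusted p = 0.018, lost without mouse 3 or 5, at 0.093 and 0.086). In SPEED Input Shmt2 was at 324.4, 283.7, 327.4 and 301.4 CPM with Tregs and at 441.4, 379.1, 408.3 and 377.1 CPM without. The groups did not overlap, but the change of -0.38 ± 0.11 missed the threshold (adjusted p = 0.11), and passed when the 2 groups were fitted alone (adjusted p = 0.040) and in DESeq2's test (adjusted p = 0.031). The difference between the assays in this change was -0.15 ± 0.19 (adjusted p = 0.94, with 0.142% of all genes called and 0 of 10 members).

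Asns and Chac1 had the largest estimates, with the largest spread between mice. Asns with Tregs was at 8.03, 13.1, 37.5, 30.3 and 28.3 CPM in Input, lower than the stimulated culture of the same mouse in 5 of 5 mice, and at 11.6, 14.5, 41.9, 40.4 and 36.8 CPM in IP, again lower in 5 of 5. The stimulated IP levels were 32.1, 57.9, 110.8, 148.2 and 134.4 CPM. The groups overlapped, as mice 1 and 2 were low in both conditions, and the changes of -1.63 ± 0.54 in Input (adjusted p = 0.084) and -1.75 ± 0.54 in IP (adjusted p = 0.051) missed the threshold. With the mouse as a block, which the labels support, both passed (-1.52 ± 0.37, adjusted p = 0.0086, and -1.72 ± 0.36, adjusted p = 0.0025). With mice 3 to 5 alone they were -1.73 and -1.71 (adjusted p = 0.0053 and 0.0059). Those mice were singled out partly by their stimulated Asns level, the control here, so these 2 values are no independent test.

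**Figure D5:**
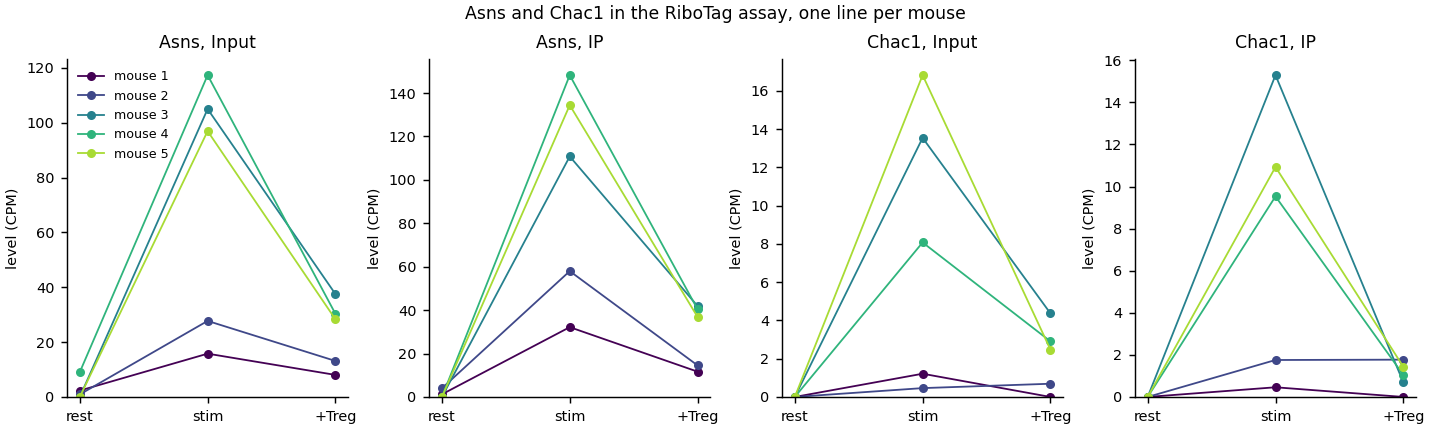
Level in CPM (vertical axes, starting at 0) of Asns and Chac1 in RiboTag Input and IP at rest, after stimulation and with Tregs, with 1 line per mouse. Asns falls from the stimulated to the Treg culture along all 5 lines in both fractions, and mice 1 and 2 run below mice 3 to 5.

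Chac1 with Tregs was at 0, 0.691, 4.37, 2.91 and 2.48 CPM in Input and at 0, 1.77, 0.698, 1.05 and 1.44 CPM in IP. In mice 3 to 5 it was lower with Tregs in both fractions, with 7 to 12 counts in Input and 2 or 3 in IP. In mice 1 and 2 both conditions held 5 counts or fewer, which gives no direction. The change was -1.91 ± 0.82 in Input (adjusted p = 0.20) and -2.89 ± 0.91 in IP (adjusted p = 0.061), and the IP value passed with the mouse as a block (-2.57 ± 0.65, adjusted p = 0.015). With that block, Atf4 in Input (-0.28 ± 0.08, adjusted p = 0.032) and Psat1 in IP (-0.57 ± 0.18, adjusted p = 0.045) passed too. Without it they were at -0.30 ± 0.13 (adjusted p = 0.20) and -0.56 ± 0.19 (adjusted p = 0.067). So 3 members were called in Input (7.84% of all genes) and 4 in IP (10.0%) with the mouse as a block, all lower with Tregs. The IP count includes Chac1, which passed the count filter only through stimulated libraries, the controls here. Its call thus adds nothing to that count.

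With mice 3 to 5 alone, 6 of 10 members were called in Input (6.50% of all genes) and 5 of 10 in IP (5.95%), all lower with Tregs. Besides Asns these were Chac1 (-1.96, adjusted p = 0.023, in Input and -3.46, adjusted p = 0.0024, in IP) and Shmt2 (-0.59, adjusted p = 0.0022, and -0.52, adjusted p = 0.0054). Atf4 was at -0.41 (adjusted p = 0.0062) and -0.37 (adjusted p = 0.017), and Psat1 at -0.54 (adjusted p = 0.038) and -0.56 (adjusted p = 0.034). Mthfd2 passed in Input (-0.35, adjusted p = 0.045) and not in IP (-0.24, adjusted p = 0.19). These 3 mice were singled out from their levels, so the values describe them and are no independent test. Chac1 passed the count filter only through stimulated libraries, so its calls add nothing to the counts of 6 and 5.

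Of the stress regulators, Ddit3 and Ppp1r15a gave Input estimates on either side of 0. In RiboTag IP, Ddit3 was higher with Tregs in 4 of 5 mice and Ppp1r15a in 2 of 5. Trib3 was lower with Tregs in 2 of 5 mice in RiboTag Input and 4 of 5 in IP. In SPEED it was lower in 3 of 4 mice in Input and 4 of 4 in Pol. The groups overlapped each time, and none of these changes passed the test. With Tregs, Ddit3 changed by 0.17 ± 0.18 and Ppp1r15a by -0.11 ± 0.19 in RiboTag Input, and by 0.20 ± 0.18 and 0.29 ± 0.17 in SPEED Input, none past the test (adjusted p of 0.44 or more). In SPEED Input, Psat1 (-0.31 ± 0.12), Phgdh (-0.38 ± 0.15) and Mthfd2 (-0.19 ± 0.08) were each lower in 4 of 4 mice without overlap, and none passed (adjusted p = 0.23, 0.26 and 0.26). How many of all genes separate in this way was not counted, and 1795 had an unadjusted p under 0.05 there. The ratio of Pol to SubPol changed with Tregs for 0 of 9 members (0% of all genes called, with 328 at an unadjusted p under 0.05, and 0 members in DESeq2's test). For Atf4 that change was -0.08 ± 0.13, with a 95% interval of -0.33 to 0.18.

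Across the 18 group means of both assays, each centred within its assay, the enzymes ran closely together and the regulators less so. Pairs among Asns, Psat1, Phgdh, Shmt2 and Mthfd2 correlated with r of 0.93 to 0.99, and Atf4 with Ddit3 at 0.88 but with Ppp1r15a at 0.55. Trib3 was at -0.18 with Atf4, 0.06 with Ddit3, 0.51 with Ppp1r15a and -0.51 to -0.69 with the enzymes, and Chac1 was not included. Atf4 with Shmt2 was at -0.50 and Ppp1r15a with Shmt2 at -0.93, so the enzymes were high in groups where Ppp1r15a was low. The 18 means share mice and differ mostly by stimulation and fraction, and these values describe the groups. The genes whose means were most like those of Atf4 among 9048 were ENSMUSG00000017386 (r = 0.95) and ENSMUSG00000090213 (r = 0.94), whose names were not used here.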

How the data were processed

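Sequencing libraries were prepared with the SMART-Seq v4 and NexteraXT kits, as the labels' protocols say, and these kits do not mark strand. The deposited tables, 1 per assay, hold the authors' raw counts, whole numbers of reads per gene and library. The submitters' processing notes name HTSeq 0.4.1, Picard 1.134, FastQC 0.11.3, SAMtools 1.2 and build GRCm38. For the aligner and for reads that map to several places, nothing is stated in the sources used here. Another 16 columns match no sample and were not used.

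The fits ran under R 4.3.3: edgeR 4.0.16, with filterByExpr (minimum count 10, minimum total 15), TMM and its robust quasi-likelihood test, two-sided, with every group of the assay in the model. They covered 30 RiboTag libraries, 44 of 45 SPEED libraries, and 27 Input libraries for the difference between assays. Ratios of fractions were contrasts within a fit. An SE is the absolute log2 fold change divided by the root of F. DESeq2 1.42.0, other scalings, no filter, fewer groups, blocks and each mouse left out were alternatives. Some of the comparisons were also fitted to simulated counts. These were drawn without a mouse or culture effect, so that run cannot bear on the pairing. CPM scaling removes any difference in total RNA between cultures or fractions. Limits given for a count of 0 cover counting error only.

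The labels give same-numbered libraries to 1 mouse, which pairs them. The mean correlation of deviations from group means was 0.149 between libraries of the same mouse in RiboTag and 0.0376 in SPEED (-0.037 and -0.012 between mice). Over 123 pairs of libraries within a group, chi-square per degree of freedom was at least 1.79, and none was counted as a copy. The members, the gene lists and the tests were chosen with earlier results of these data known. All 10 members are named, and other genes only by the highest correlation of group means. Lists of further ATF4 targets, eIF2 genes and cell type markers (CD4 T cells and Tregs among them) need symbols for Ensembl identifiers and were not analysed here, so the labelled cell type was not checked.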

Additional observations from a re-analysis of the deposited data

Results flagged for a closer look

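In 144 groups of 4 or 5 libraries, 10 had a library far from the others, where chance alone gives about 1 in 20. In RiboTag Input at rest, Atf4 in mouse 2 was at 226.1 CPM against 298.9 to 324.1 in the others, and Asns in mouse 4 was at 9.07 CPM (19 counts) against 0 to 2.32. In RiboTag with Tregs, Ppp1r15a in IP of mouse 3 was at 77.1 CPM against 47.9 to 53.6, and Psat1 in Input of mouse 4 was at 360.0 CPM against 268.2 to 294.6. In untreated SPEED cells, Asns was at 1.81 CPM in Input of mouse 3 and at 5.27 CPM in Pol of mouse 1. In untreated SubPol, Mthfd2 of mouse 1 was at 101.6 CPM and Shmt2 of mouse 3 at 120.0 CPM. Chac1 was at 1.08 CPM in stimulated SPEED Input of mouse 1 and at 1.25 CPM in SPEED Input with Tregs of mouse 3, with 0 in the other mice.

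The change with stimulation differed between the assays for Ppp1r15a (1.36), Psat1 (1.14) and Phgdh (0.62, RiboTag minus SPEED, log2 scale, edgeR). Strain, assay and resting condition cannot be told apart.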

How the results depend on the processing

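Of 72 results that passed, the alternatives gave 832 values with the same call, 47 past the threshold no longer and 1 reversed, the ratio of Phgdh under HHT with Pol over Input (0.052). Of 39 results that did not pass, 413 values stayed so, 55 passed and 10 turned sign. The change of Atf4 in RiboTag Input on stimulation turned to 0.029 with DESeq2 size factors, 0.0030 with upper quartile scaling, 0.018 with no filter, 0.029 in DESeq2's test and 0.036 with mice 3 to 5 alone (-0.046 to 0.042 with 1 mouse left out). The IP-over-Input value of Asns at rest, which rests on few counts, ran from -2.90 to 0.67 with 1 mouse left out. The number of members called with Tregs in RiboTag Input, 1, was 2 with only the groups compared (9.28% of all genes called), 3 with the mouse as a replicate block (7.84%), 6 with mice 3 to 5 alone (6.50%), and 0 to 2 with 1 mouse left out (1.78% to 4.43%). In IP, 1 became 2 with DESeq2 size factors (5.72%) and in DESeq2's test (8.62%), 3 with only the groups compared (5.11%), 4 with the mouse as a block (10.0%), 5 with mice 3 to 5 alone (5.95%), and 0 to 3 with 1 mouse left out (2.05% to 4.12%). Chac1 is in several of these counts with Tregs, though it passed the count filter only through stimulated libraries. For IP over Input, 0 became 1 at rest and 1 after stimulation with the mouse as a block (10.4% and 2.33%), 3, 3 and 2 (with Tregs) with the culture as a block (17.9%, 7.90% and 11.2%), and 2 at rest with mice 3 to 5 alone (10.7%), where 1 of the 2 is Asns, at 0 counts in IP. With Tregs in SPEED Input 0 became 1 with only the groups compared (1.57%) and in DESeq2's test (2.07%). For Pol over SubPol with HHT 0 became 1 in DESeq2's test (9.29%), with the mouse (8.75%) or the culture (10.0%) as a block and when the SubPol library of untreated mouse 3 was dropped (7.92%), and was 0 to 1 with 1 mouse left out (1.09% to 6.52%). For the change of Pol over SubPol on stimulation 0 became 2 in DESeq2's test (5.36%) and with the mouse (4.47%) or the culture (5.71%) as a block. With Pol over Input, 9 became 4 in untreated cells (9.26%), 8 became 5 after stimulation (8.33%), and 6 became 1 for the change with HHT (0.354%). The mouse as a block moved no other count of members by more than 1.5 times. Where no value above shows it, the cause was not tested. Mice 3 to 5 alone and the fit without 1 SubPol library were chosen after seeing the data. The alternatives for the gene lists were not run. Depth limits Asns and Chac1 at rest, where most libraries hold fewer than 10 counts.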
